A study of Mus musculus with 14 samples.

Results

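The small ribosomal subunit proteins are encoded by 29 genes of the 14248 genes with a listed transcript in these data. They were chosen by name, as the protein-coding genes of this subunit present in the files. The rule for membership used no measured value, but it was set with earlier results of these data known. Each gene is represented by the transcript with the highest mean level over the libraries. C57BL/6J mouse embryonic fibroblasts were profiled by Ribo-seq, which sequences the mRNA pieces that ribosomes protect, and by RNA-seq, with 7 libraries for each. The Torin group, treated with the mTOR inhibitor Torin1 at 250 nM for 2 h, has 1 library per assay. The METTL3 knockdown, the ABCF1 knockdown and the Scram control each have 2 libraries per assay. METTL3 is the catalytic subunit of the mRNA m6A methyltransferase. ABCF1 is an ATP-binding cassette protein that binds the initiation factor eIF2 and ribosomes. The labels name the knockdowns shMETTL3 and shABCF1 and mention DMSO as the vehicle of Torin1. The sources used here do not give which libraries received DMSO, whether the Torin cells carried a hairpin, or whether the lines are clones or pools. Cells of all groups met cycloheximide at 100 µg/ml in the wash and in the lysis buffer. The study's title names translation that does not need eIF4F, the complex that binds the mRNA cap, as its question.

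The small subunit binds the mRNA, scans it for a start codon and reads its codons, and the large subunit joins it to form peptide bonds. Most vertebrate mRNAs for ribosomal proteins are TOP mRNAs, which begin with a C followed by a run of pyrimidines (C or T) at the 5′ end. Their translation is known to depend on mTOR complex 1, through LARP1, which holds the 5′ end, and through the 4E-BPs, which block assembly of eIF4F.

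The RefSeq promoter windows (build GRCm38.p6) held an annotated start for 25 of the 29 genes, and Rps14, Rps20, Rps27a and Rps29 had no entry. Within 30 bases before to 50 bases after the annotated start, 18 of these 25 had a run of at least 8 pyrimidines on the coding strand, against 28.9% of 27025 genes. The longest run had a median of 10 bases in the 25 genes (range 5 to 16), against 6 bases in all genes. The runs of Rps2, Rps19, Rps23 and Rps24 reach the end of the searched stretch, so their lengths are minimums. A C followed by 4 pyrimidines began exactly at the annotated start in 7 of the 25, against 2.5% of all genes. The windows below are 30 bases long, 5′ to 3′ on the coding strand, with the longest pyrimidine run in capitals. They show the genes with low (Rps7, Rps19, Rps18) and high (Rps26, Rps27l) translational efficiency in Torin against Scram, genes with the run across the annotated start (Rps10, Rps6, and also Rps18), and a gene with no long run (Rps16).
Rps7: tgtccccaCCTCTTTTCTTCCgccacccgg
Rps19: cgcccgggaaaccccgtcgTTCCCTTTCCC
Rps18: tcacttccgCTCTCTCTTCCacaggaggcc
Rps10: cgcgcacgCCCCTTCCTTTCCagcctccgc
Rps6: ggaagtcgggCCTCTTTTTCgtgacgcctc
Rps16: ccgtaaagcccgCTTCTgtcgtgacgtagc
Rps26: agccgccggaTCCTCTTTCgagtcttggct
Rps27l: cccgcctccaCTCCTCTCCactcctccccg
The Rps7 window is at chr12:28635910-28635939 on the minus strand, and its run of 13 bases begins 23 bases from the annotated start. The Rps19 window is at chr7:24884612-24884641 on the plus strand. Its run of 11 bases begins 40 bases from the annotated start and is cut by the end of the searched stretch. The Rps18 window, at chr17:33955647-33955676 on the minus strand, also has a run of 11 bases. The Rps10 window is at chr17:27635226-27635255 on the minus strand, with a run of 13 bases. The Rps6 window is at chr4:86857349-86857378 on the minus strand, with a run of 10 bases. The Rps16 window is at chr7:28350666-28350695 on the plus strand, with a run of 5 bases. The Rps26 window is at chr10:128626484-128626513 on the minus strand, and the Rps27l window is at chr9:66946054-66946083 on the plus strand, each with a run of 9 bases. The Rps26 run begins at position 4 from the annotated start. The Rps27l run begins at position -22 and ends upstream of that start, and another annotated start of Rps27l has a run of 5 bases. Annotated starts are approximate, and a run in this window is a description of the sequence.

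Assigned reads numbered 1764404 to 5155237 per Ribo-seq library and 1197853 to 3802692 per RNA-seq library. The libraries fall into a first set (all replicate 1 libraries), which lists transcripts from 1 read, and a second set (replicate 2 and Torin), which lists them from about 5 reads. Levels of all genes correlated at 0.86 to 0.96 within a set and 0.78 to 0.87 between sets in RNA-seq, and at 0.92 to 0.97 and 0.85 to 0.92 in Ribo-seq. Each library is therefore compared with the Scram library of its own set. In RNA-seq, Mettl3 stood at 29.0% and 77.4% of Scram in METTL3 knockdown replicates 1 and 2, and Abcf1 at 29.3% and 47.5% of Scram in ABCF1 knockdown replicates 1 and 2. Of 10 fibroblast markers 8 were listed in every library, and Lum in none. Their summed level was 2108.8 to 4575.3 in RNA-seq, and the summed epithelial markers, 2 of 6 of them listed in every library, reached 44.8 to 95.8. Endothelial, leukocyte and neural markers summed to at most 15.6 in either assay.

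Levels are given as scaled RPKM, reads per kilobase and per library depth, scaled so that the tested genes of every library have the same median. RNA-seq values are per length of transcript, and Ribo-seq values per length of coding sequence. In Scram the small subunit genes stood near the top of both assays. Their median RNA-seq level was 243.4 in Scram replicate 1 and 429.5 in Scram replicate 2, against 10.13 for the median tested gene. Their median Ribo-seq level was 1048.4 and 2315.8, against 22.43. These medians lay above 98.4% to 99.3% of tested genes. Rps21, a small subunit protein with a coding sequence of only 252 bases, had the highest Ribo-seq level of the tested members, at 7364.4 and 6649.5.

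Of the 29 genes, 22 could be tested in both sets. Rps9, whose yeast and bacterial counterparts affect decoding accuracy, Rps12, a protein of the beak, Rps27, a zinc-binding protein, and Fau, a ubiquitin-like protein fused to the small subunit protein eS30, had their main transcript listed in the first set only. Rps13, Rps15a and Rps28 were measured in the second set only, and are given below where that set suffices. In the first set their main transcript was not listed or held under 10% of the gene's RPKM. The map of levels by library shows unlisted values as white cells, and shows the step between the sets in genes such as Rps6. Rps6 had 80.43 (METTL3), 78.91 (ABCF1) and 64.75 (Scram) in RNA-seq of the first set. In the second set it had 473.59 (Torin), 500.26 (METTL3), 470.18 (ABCF1) and 487.6 (Scram), and the sum of its transcripts shows the same step. The step of Rps3, with 56.21 in Scram replicate 1 and 293.5 in Scram replicate 2, rests on the transcript kept, since its transcripts sum to 456.3 and 301.07 in these libraries. Rps26 stepped the other way, with 347.84 in Scram replicate 1 and 77.13 in Scram replicate 2. Many of these genes have near-identical copies elsewhere in the genome, 18 for Rps2, 11 each for Rpsa, Rps6 and Rps23, and 0 for Rps3, Rps19 and Rps27l. Copies of Rps2, Rps4x, Rps12, Rps18, Rps26, Rps27, Rps28 and Fau are themselves listed in the files. The sources used here do not give the rule for reads that match several places, so levels of genes with copies are uncertain.

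**Figure D1:**
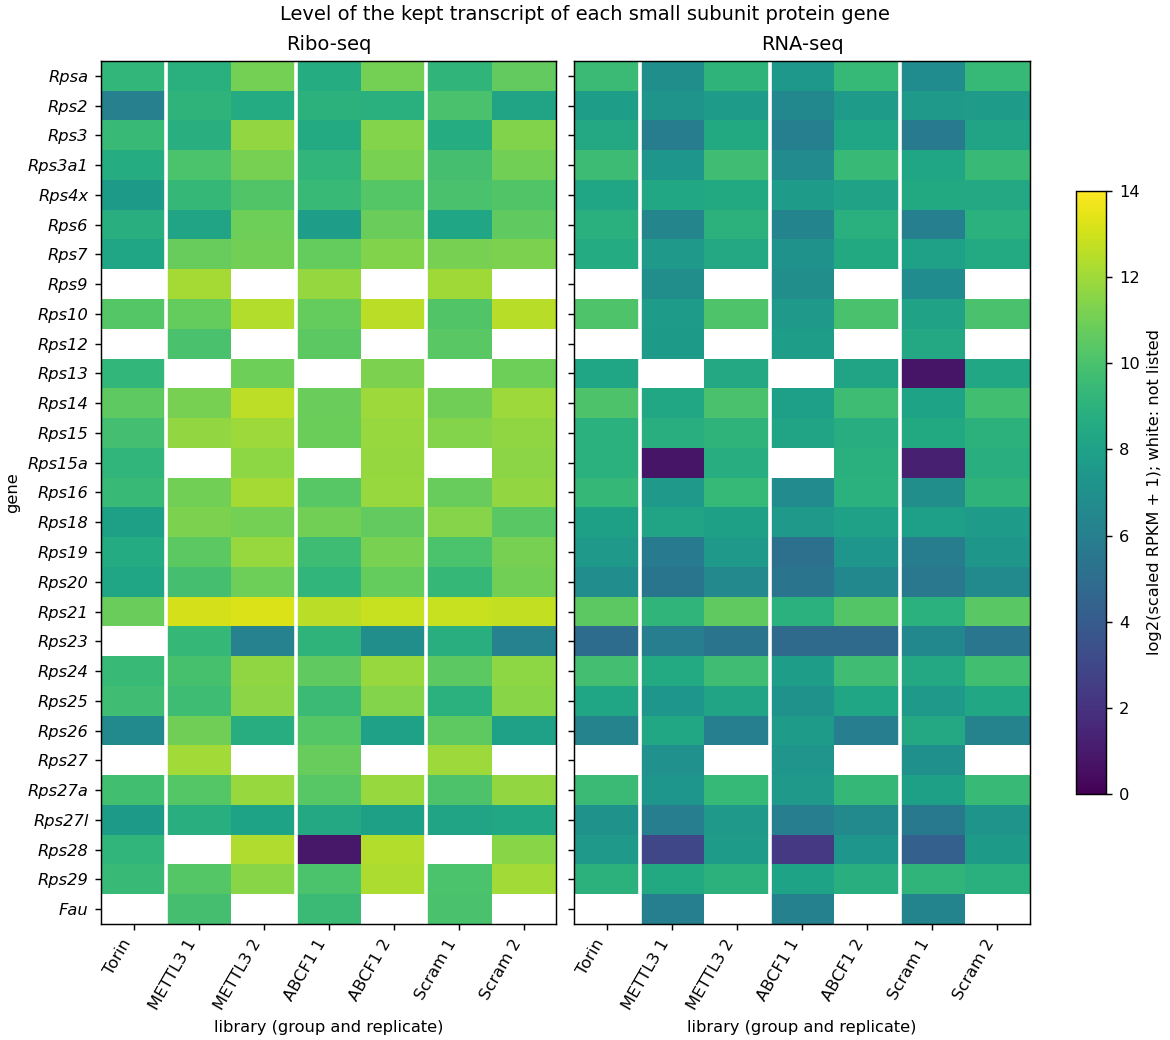
Level of the kept transcript of each of the 29 genes (rows) in each library (columns; group and replicate), as log2(scaled RPKM + 1), Ribo-seq left and RNA-seq right. White cells are not listed. In Ribo-seq the Torin column is darker than the other second-set columns (METTL3 2, ABCF1 2, Scram 2) in the 24 genes with a Torin value.

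Ribosome footprints on the small subunit genes were fewer in Torin than in Scram replicate 2, while their RNA levels were similar. The median Ribo-seq level of the 22 tested genes was 22.7% of Scram (a median difference of -2.14 on the log2 scale), and all 22 were lower, against 50.5% of all tested genes. They were lower by over 2-fold in 21 of 22, against 6.30% of all tested genes. Their median RNA-seq level was 107.0% of Scram, with 7 genes lower and 15 higher, where 53.4% of all tested genes were lower. Without scaling between libraries 16 of 22 were lower in RNA-seq, with a median of -0.07 against -0.18 for all tested genes, so the direction of the RNA-seq median depends on the scaling. Translational efficiency (TE), the log2 Ribo-seq minus the log2 RNA-seq level, had a median difference of -2.23. TE was lower in 22 of 22, against 48.0% of all tested genes, and by over 2-fold in 21 of 22, against 5.71%. All log2 differences are on the log2(scaled RPKM + 1) scale. These are 1 library against 1 library, so the difference itself has no replicate check. Levels are relative within a library, so total footprints per cell are not measured, and in bulk samples fewer cells of a type and less RNA per cell cannot be told apart.

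The other libraries of the second set give a measure of spread. In Ribo-seq, Torin lay below all 3 of METTL3 replicate 2, ABCF1 replicate 2 and Scram replicate 2 in 22 of 22 genes, where 32.2% of all tested genes did. In TE it did so in 22 of 22, where 31.1% of all tested genes did. In RNA-seq, Torin lay below all 3 in 0 of 22, where 25.7% of all tested genes did, and above all 3 in 8 of 22, where 25.5% did. The knockdown libraries of that set differed from Scram replicate 2 by -0.52 to 0.71 (METTL3) and -0.47 to 0.69 (ABCF1) in Ribo-seq of these genes, whereas no listed gene in Torin was closer than -0.77.

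**Figure D2:**
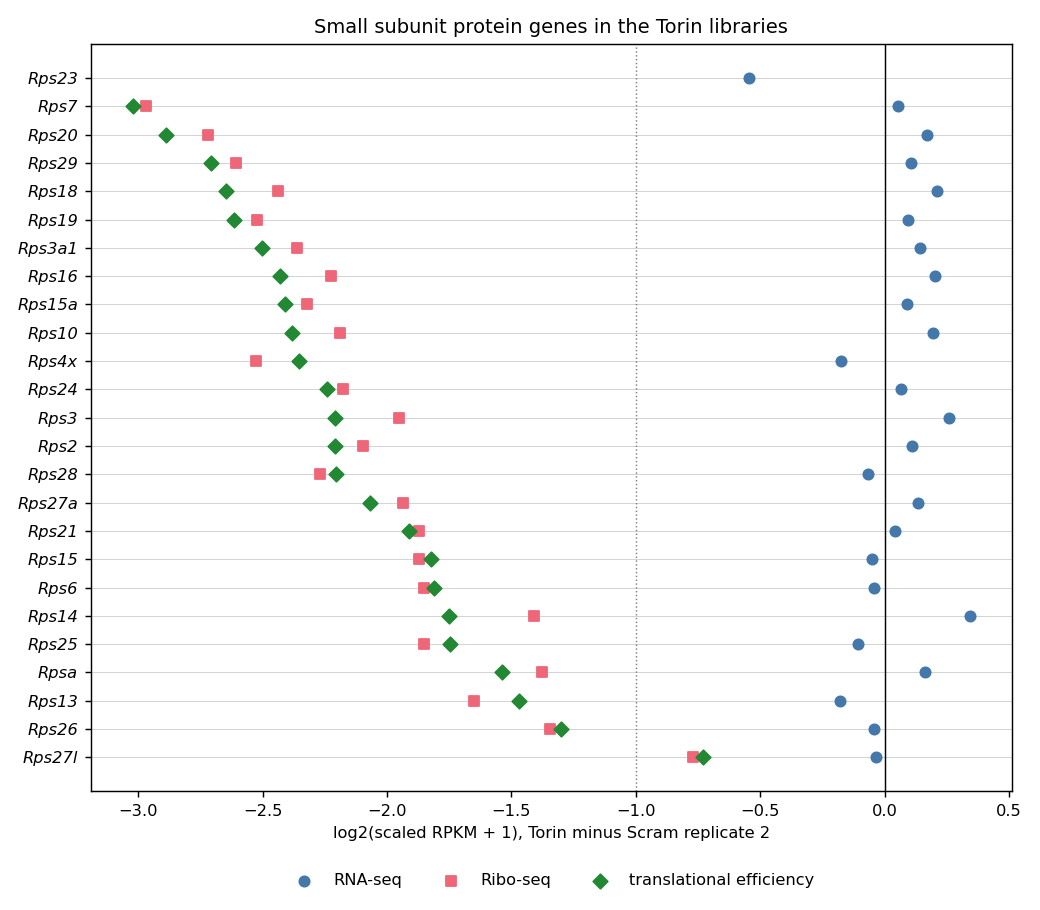
Difference between Torin and Scram replicate 2 in log2(scaled RPKM + 1) for the 25 genes measured in the second set, ordered by TE difference. Ribo-seq (squares) and TE (diamonds) lie left of 0 in all genes with a value, from -0.73 to -3.02 in TE, and RNA-seq (circles) lies near 0. The dotted line marks a 2-fold decrease, and Rps23 has an RNA-seq value only.

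Footprints on Rps7, a protein of the subunit body, were the lowest relative to Scram among the genes listed in Torin. In the second set its Ribo-seq level was 306.95 in Torin, 2040.07 in METTL3, 2626.08 in ABCF1 and 2410.9 in Scram, so Torin stood at 12.7% of Scram and apart from the other 3. Its RNA-seq level was 394.14 in Torin, against 380.01, and its TE difference was -3.02. Rps20, a head protein that the ligase ZNF598 ubiquitylates on collided human ribosomes, had a Ribo-seq level of 316.51 in Torin, against 2088.94 in Scram replicate 2, and a TE difference of -2.89. Rps29, a small zinc-binding head protein, had 699.06 in Torin, against 4258.46, and a TE difference of -2.71. RNA-seq of both was slightly higher in Torin, at 115.75 against 102.87 for Rps20 and 514.71 against 478.92 for Rps29.

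Rps27l departed least from Scram. It encodes a paralog of Rps27 known as a p53 target. Its Ribo-seq level was 199.95 in Torin, 280.87 in METTL3, 246.44 in ABCF1 and 341.36 in Scram of the second set, so Torin stood at 58.6% of Scram with a small gap to ABCF1. RNA-seq was 147.54 in Torin, against 151.35 in Scram, and the TE difference was -0.73. The main transcript of Rps27 itself was not listed in the second set, and the paralogs cannot be compared there. In the first set Rps27 had Ribo-seq levels of 4256.16 (METTL3), 1714.9 (ABCF1) and 3950.91 (Scram), and Rps27l had 443.46, 345.34 and 291.63 in the same order. Rps26, a protein at the mRNA exit channel whose gene is mutated in Diamond-Blackfan anaemia in humans, had 100.86 in Torin, against 257.48, and a TE difference of -1.30. It rests on 69 Ribo-seq reads in Torin, against 331 in Scram replicate 2. Rps13, measured in this set only, had 616.89 in Torin, against 1935.9, and a TE difference of -1.47.

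Rps6, the substrate of the S6 kinases downstream of mTOR complex 1, lay inside the range of the others. Its Ribo-seq level was 430.01 in Torin, against 1554.57 in Scram replicate 2, or 27.7%, and its RNA-seq level was 473.59, against 487.6. Rps27a encodes ubiquitin fused to a small subunit protein, so its mRNA supplies both. Its Ribo-seq level was 872.64 in Torin, against 3337.55, or 26.1%, and its TE difference was -2.07. Ubb, which encodes ubiquitin without a ribosomal protein, had Ribo-seq levels of 449.39 in Torin, against 631.06 in Scram replicate 2, and a TE difference of -0.52.

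The decoding protein Rps23 was not listed in Torin Ribo-seq. It had 70 reads in METTL3 replicate 2, 136 in ABCF1 replicate 2 and 116 in Scram replicate 2 (a scaled RPKM of 72.69). A value under about 5 reads, a scaled RPKM of 5.89 in Torin, would not have been listed. No fold is given for it. It counts as lower above, and with it at that bound the medians stay at -2.14 in Ribo-seq and -2.23 in TE. Without it they are -2.1 and -2.21. Its RNA-seq level was 30.03 in Torin (24 reads), against 44.28 in Scram replicate 2 (124 reads).

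Among the proteins that line the mRNA entry, Rps3 had second-set Ribo-seq levels of 682.41 in Torin, 3446.56 in METTL3, 2683.19 in ABCF1 and 2641.96 in Scram, and Rps2 had 67.15 in Torin, 389.58 in METTL3, 463.66 in ABCF1 and 290.66 in Scram. Their TE differences were -2.21 each, and RNA-seq of Rps3 was 351.32 in Torin, against 293.5 in Scram. At the platform, Rps3a1 had Ribo-seq levels of 406.94 in Torin, 2241.9 in METTL3, 2353.59 in ABCF1 and 2094.48 in Scram, with a TE difference of -2.50. Rps14, also at the platform, had 1494.81 in Torin, 6303.32 in METTL3, 3963.5 in ABCF1 and 3973.31 in Scram. Its RNA-seq level was the most raised of the members, at 1107.38 in Torin, against 873.33 in Scram, and its TE difference was -1.75. In these 4 genes, too, Torin was below each of the other second-set libraries in Ribo-seq, where 32.2% of all tested genes were.

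The head proteins Rps18 and Rps19 had similar values. Rps18 had Ribo-seq levels of 247.14 in Torin, 2185.49 in METTL3, 1588.11 in ABCF1 and 1342.91 in Scram, and RNA-seq levels of 248.93 in Torin and 215.34 in Scram. Rps19, whose gene is the one most often mutated in Diamond-Blackfan anaemia in humans, had 385.29 in Torin, 3621.56 in METTL3, 2354.28 in ABCF1 and 2220.72 in Scram. Their TE differences were -2.65 and -2.62. Rps10, another target of ZNF598 in human cells, had Ribo-seq levels of 1245.14 in Torin, 5440.95 in METTL3, 5969.41 in ABCF1 and 5680.46 in Scram, with a TE difference of -2.38. Rps16, whose tail reaches the tRNA in the P site, had 727.84 in Torin, 4482.21 in METTL3, 3641.72 in ABCF1 and 3408.06 in Scram, with -2.43. Rps15, near the decoding site, had 907.03 in Torin, 3886.8 in METTL3, 3629.85 in ABCF1 and 3319.54 in Scram, with -1.82. Rps28, a small protein near the exit channel, had 593.46 in Torin, 5058.97 in METTL3, 5288.87 in ABCF1 and 2868.19 in Scram, with -2.21. In Ribo-seq, Torin was below the other 3 second-set libraries in all of these genes, where 32.2% of all tested genes were. Rps15 was the least reduced of them.

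Of the other genes, Rps4x, the X-linked form of this protein, had Ribo-seq levels of 200.39 in Torin, 1161.75 in METTL3, 1289.67 in ABCF1 and 1159.04 in Scram, with a TE difference of -2.35. Its RNA-seq level was 310.05 in Torin, against 349.83 in Scram. Rps24, another Diamond-Blackfan gene in humans, had 706.08 in Torin, 3228.91 in METTL3, 3712.4 in ABCF1 and 3195.94 in Scram, with -2.24, and Rps15a had 601.87 in Torin, 3189.79 in METTL3, 3593.23 in ABCF1 and 3009.44 in Scram, with -2.41. Rps21 had 1816.72 in Torin, 9813.73 in METTL3, 7326.81 in ABCF1 and 6649.47 in Scram, with -1.91. Rps25, which several viral internal ribosome entry sites need, had 820.89 in Torin, 3075.33 in METTL3, 2669.43 in ABCF1 and 2967.02 in Scram, with -1.74. Rpsa, also known as the laminin receptor precursor, had 604.92 in Torin, 2153.18 in METTL3, 2192.82 in ABCF1 and 1573.63 in Scram, with -1.54. RNA-seq of Rps13 was 298.21 in Torin, against 337.57 in Scram. Rps9 had a value through the sum of its transcripts, with differences of -2.27 in Ribo-seq, 0.01 in RNA-seq and -2.28 in TE. In Ribo-seq, Torin lay below all other second-set libraries in each of these genes whose main transcript was listed, where 32.2% of all tested genes did.

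Across genes, the Torin TE difference showed little relation to the features examined. Pearson's r over 24 genes was -0.08 with coding length, -0.27 with transcript length, -0.08 with the number of near-identical copies and -0.01 with the RNA-seq level in Torin. It was -0.15 with the length of the pyrimidine run over the 20 genes with a start window. Rps16, with a run of 5 bases, had a lower TE difference than Rps6, with a run of 10. Genes in 1 library share its depth, so these are descriptions without a test.

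Relative to the median gene of the same libraries, TE of the tested genes had a median of -1.07 in Torin (21 genes with a value, 2 above the median gene), 1.63 and 1.18 in METTL3 replicates 1 and 2, and 1.47 and 1.13 in ABCF1 replicates 1 and 2. It was 1.14 and 1.00 in Scram replicates 1 and 2 (21 and 18 of 22 above). In Torin, 17.9% of tested genes lay below the members' median, and in Scram replicate 2, 81.2%. Of the tested genes, Rps25 and Rps20 lay above the median gene in Torin, at 0.17 and 0.15, against 1.92 and 3.05 in Scram replicate 2. Rps28, measured in the second set only and so not among the tested genes, was higher still, at 0.38 in Torin, against 2.59 in Scram replicate 2. RNA-seq levels are per length of the annotated transcript, so the order of genes in this TE depends on that length. The kept transcripts of Rps20 and Rps25 have 3706 and 1280 bases, with coding sequences of 360 and 378 bases.

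The 29 genes took 0.808% of the assigned Ribo-seq reads in Torin (95% Wilson interval 0.795% to 0.821%, counting error only). The other second-set libraries had 3.273% (METTL3), 3.174% (ABCF1) and 2.886% (Scram, 2.869% to 2.902%), so Torin was the lowest of the 4. In RNA-seq they took 0.766% in Torin (0.75% to 0.781%), against 0.798% in Scram replicate 2 (0.789% to 0.807%). In the second set many RNA-seq reads lay on Lars2 and Tmem38b, and without these the share was 1.49% in Torin, against 1.414% in Scram replicate 2. Shares are comparable within a set only, because the sets list different transcripts. Rps12 and Rps27 had no protein-coding transcript listed in the second set, and Fau and Rps23 had none in Torin Ribo-seq.

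**Figure D3:**
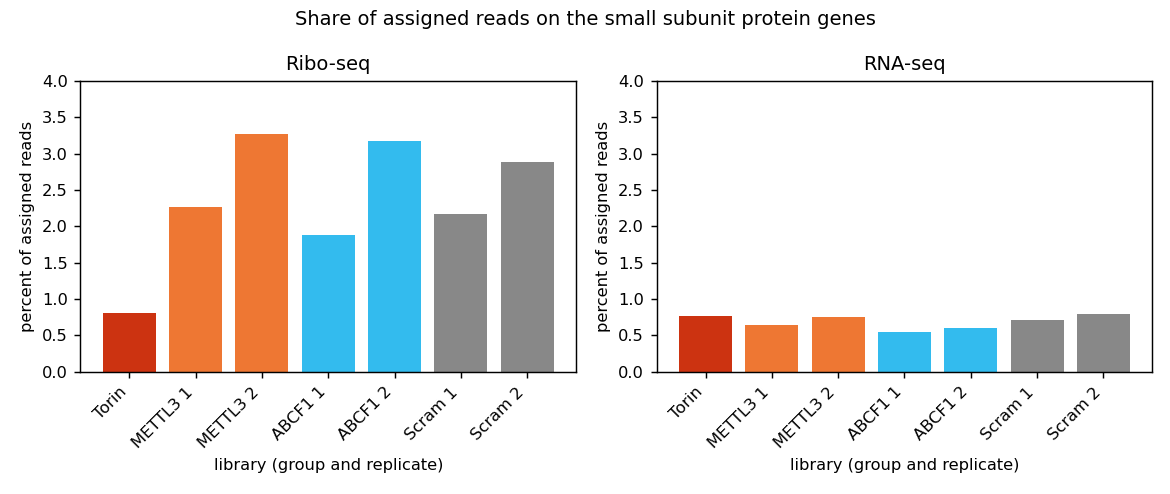
Share of assigned reads on the 29 genes in each library (percent), Ribo-seq left and RNA-seq right, each bar 1 library, colours marking the group. Bars are comparable within a set only. The Torin Ribo-seq bar, at 0.808%, is the lowest of the second set (Torin, METTL3 2, ABCF1 2, Scram 2). The RNA-seq bars of that set lie between 0.602% and 0.798%.

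Other parts of the translation machinery give the setting. The genes of large subunit proteins had a median TE difference of -2.21 in Torin (31 of 31 lower), close to that of the small subunit genes. The lowest were Rpl27a, Rpl11 and Rpl36, at -3.37, -3.20 and -3.10. Other known TOP mRNAs had a median of -1.69 (18 of 18 lower), with Tpt1 at -3.22, Eef1a1 at -3.21 and Eef1b2 at -2.79. Factors that assemble the small subunit had a median of -0.04, with 16 of 29 lower. Among them Rrp36 had -1.46, Tsr2 -0.71 and Heatr1 1.02. Signalling and binding partners of the subunit had a median of -0.02 (7 of 14 lower), with Rack1, a head-bound scaffold that is itself a TOP mRNA, at -2.12, Eif4ebp1 at -1.39 and Eif4ebp2 at -1.07. No difference between these lists was tested.

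**Figure D4:**
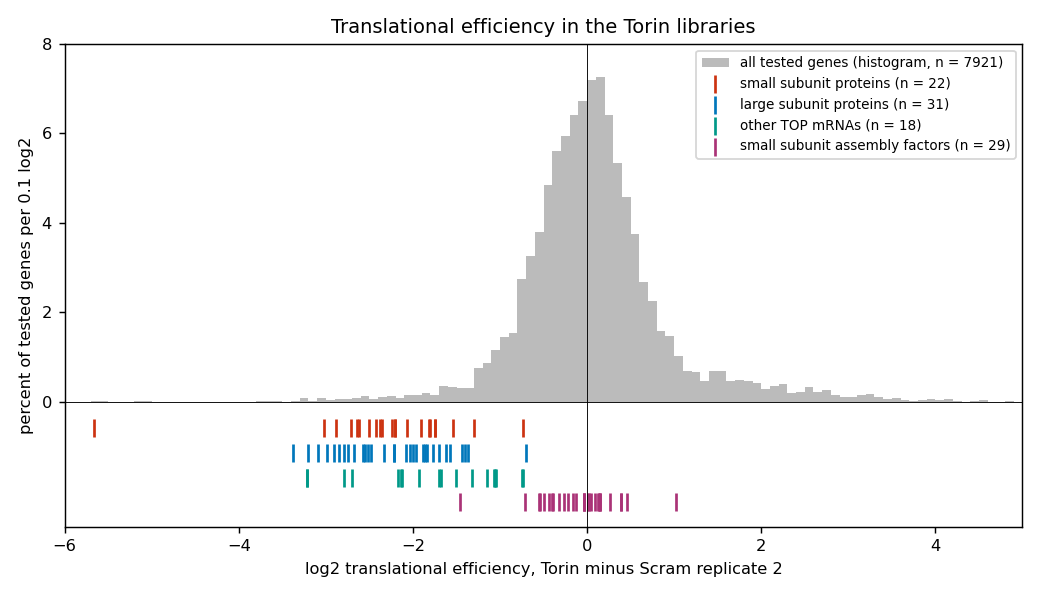
TE difference between Torin and Scram replicate 2, in log2 units: histogram of 7921 tested genes (percent per 0.1), with ticks under it for the genes of each list. The small and large subunit ticks lie at or left of -0.70 throughout, and the assembly factors spread around 0. The tick at the far left is Rps23, set to 0 in Torin Ribo-seq, and its position depends on the pseudocount.

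Differences were tested with limma over all tested genes, in which the lone Torin library per assay is assumed to vary like the other groups. Without a replicate term the fit called 0 genes (0%) at an adjusted p under 0.05 in Torin in any of the 3 measures, and so 0 of 22 members. Unadjusted p was under 0.05 for 284 genes (RNA-seq), 539 genes (Ribo-seq) and 373 genes (TE), among them 0, 7 and 7 members. The fit without a replicate term compares Torin, a second-set library, with Scram of both sets, so the step between the sets enters its error. Standard errors of the members' Torin change in Ribo-seq were 0.46 to 1.80 in that fit and 0.26 to 0.49 with the replicate number as a block. Same-numbered libraries deviate together, and the replicate number matches the set. With this block (Torin at the level of replicate 2) the calls changed. In Ribo-seq 16 of 22 members fell, against 1.34% of all tested genes called, and in TE 10 of 22 fell, against 0.922%. In RNA-seq 0 of 22 members were called, against 0.341%, and 464 genes and 0 members had an unadjusted p under 0.05. Rps23 is among both counts with a value set to 0. The 15 listed members that fell in Ribo-seq had adjusted p of 0.00679 to 0.0405 (limma, Benjamini-Hochberg) and changes of -1.9 to -3.08. Among these, Rps7 had the largest fall, a log2 change of -3.08 ± 0.30 (SE, adjusted p = 0.00679 by limma). The 6 not called were Rps14, Rps2, Rps25, Rps26, Rps27l and Rpsa, of which Rps27l had -0.50 ± 0.34 (SE, adjusted p = 0.552 by limma). In TE the 9 listed members that fell were Rps3, Rps4x, Rps6, Rps7, Rps16, Rps18, Rps19, Rps20 and Rps21, with adjusted p of 0.0214 to 0.049 by limma. These blocked calls depend on single libraries, and the share of all tested genes called moved with them. Leaving out a library from the blocked fit was an alternative chosen after seeing the data, and it lowers the residual degrees of freedom. The size of the fall moved less. The members' median blocked change in Ribo-seq was -2.16 with all libraries and -2.14 to -2.28 with 1 left out. In TE it was -2.23 with all libraries and -2.21 to -2.37 with 1 left out. In Ribo-seq, 4 of 22 members were called without METTL3 replicate 1 (0.385% of all tested genes) and 6 without METTL3 replicate 2 (0.607%). It was 11 without ABCF1 replicate 1 (0.875%) and 11 without ABCF1 replicate 2 (0.898%). It was 21 without Scram replicate 1 (4.06%) and 20 without Scram replicate 2 (6.00%). In TE, 0 of 22 members and 0 genes (0%) were called by limma without either METTL3 or either Scram replicate, with 553 to 625 genes and 18 to 21 members at an unadjusted p under 0.05. It was 3 members without ABCF1 replicate 1 (0.417%) and 3 without ABCF1 replicate 2 (0.454%). With the block and summed transcripts, also chosen after seeing the data, 19 of 26 members were called in Ribo-seq (1.46%) and 9 of 26 in TE (0.860%). In the same blocked fit of Ribo-seq, 22 of 31 large subunit genes, 11 of 18 other TOP mRNAs, 2 of 14 signalling and binding partners and 0 of 29 assembly factors fell. In TE, 11 of 31 large subunit genes and 5 of 18 other TOP mRNAs fell.

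ABCF1 knockdown was compared with Scram of the same replicate. RNA-seq levels of the small subunit genes were lower in both replicates for 15 of 22, against 30.8% of all tested genes, and higher in both for 1, against 22.2%. The median difference was -0.39 in replicate 1 and -0.09 in replicate 2, against -0.03 and -0.06 for all tested genes. Ribo-seq did not follow, with 2 of 22 lower in both replicates (24.1% of all tested genes), 5 higher in both (28.5%), and medians of -0.25 and 0.13. TE was higher in both replicates for 12 of 22, against 32.1%, and lower in both for 1, against 21.7%, with medians of 0.21 and 0.24. These counts depend on the scaling: with quantile normalization the RNA-seq medians were -0.14 and 0.0 (-0.01 in each replicate for all tested genes), and the TE medians were 0.03 and 0.1 (-0.01 and 0.04 for all tested genes). The RNA-seq counts of other lists ran the same way, with 26 of 34 large subunit genes, 17 of 29 assembly factors and 11 of 19 other TOP mRNAs lower in both replicates. TE was higher in both for 23 of 31 large subunit genes. With or without the block, limma called 0 genes (0%) in each of the 3 measures. Without the block, unadjusted p was under 0.05 for 150 genes (RNA-seq), 200 genes (Ribo-seq) and 58 genes (TE), of which 1, 0 and 0 were members. With the block there were 562, 676 and 281 genes, of which 3, 0 and 1 were members.

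Of the tested genes, Rps23 had the largest mean differences under ABCF1 knockdown. Its RNA-seq level was 27.15 and 27.38 in ABCF1 replicates 1 and 2, against 91.15 and 44.28 in Scram replicates 1 and 2. In Ribo-seq it had 557.1 and 118.05 in ABCF1, against 444.72 and 72.69 in Scram. TE was higher by 2.04 and 1.37 on the log2 scale, so both replicates were higher, from 50 and 22 RNA-seq reads in ABCF1, against 198 and 124 in Scram. The gene has 11 near-identical copies. Rps3a1 had RNA-seq levels of 106.11 and 705.01 in ABCF1, against 311.23 and 702.0 in Scram, a difference in replicate 1 alone. Rps4x had 212.66 and 270.08 in ABCF1, against 358.7 and 349.83 in Scram, lower in both replicates. Rps29 had TE differences of 1.08 and 0.30, and Rps10 1.02 and 0.03. At the other end, Rpsa had RNA-seq levels of 178.98 and 662.39 in ABCF1, against 109.93 and 671.97 in Scram. It had RNA-seq differences of 0.70 and -0.02 and TE differences of -1.17 and 0.50, which disagree in sign. Rps6 had RNA-seq levels of 78.91 and 470.18 in ABCF1, against 64.75 and 487.6 in Scram, with TE differences of -0.72 and 0.28. Rps3 had 64.82 and 297.12 in ABCF1, against 56.21 and 293.5 in Scram, with TE differences of -0.32 and 0.00. The direction of Rps3 turns with the transcript choice: its transcripts summed to 235.86 in ABCF1 and 456.3 in Scram of replicate 1, an RNA-seq difference of -0.95 with a TE difference of 0.53. In all 3 of these genes the replicates differed in the direction or size of TE.

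In Ribo-seq under ABCF1 knockdown, Rps3a1 was lowest on average, with 600.25 and 2353.59 in ABCF1, against 948.89 and 2094.48 in Scram. Rps15 had 1861.8 and 3629.85 in ABCF1, against 2722.71 and 3319.54 in Scram. Rps20 had 601.12 and 1663.41 in ABCF1, against 636.82 and 2088.94 in Scram, lower in both replicates, whereas Rps3a1 and Rps15 were lower in replicate 1 only. At the high end, Rps25 had 733.69 and 2669.43 in ABCF1, against 498.37 and 2967.02 in Scram. Rps10 had 1636.04 and 5969.41 in ABCF1, against 1164.42 and 5680.46 in Scram. Rps10 and Rps23 were higher in both replicates, and Rps25 in replicate 1 only. Rps27a had 188.81 and 642.55 in RNA-seq of ABCF1, against 252.1 and 680.03 in Scram, with TE differences of 0.67 and 0.20. Rps27l had RNA-seq levels of 62.48 and 101.99 in ABCF1, against 49.44 and 151.35 in Scram, with replicates of opposite sign. Fau, measured in replicate 1 only, had RNA-seq levels of 71.01 in ABCF1, against 79.2 in Scram, and Ribo-seq levels of 731.47, against 1015.68. Rps27 had a Ribo-seq difference of -1.20 in replicate 1, and Rps28, whose main transcript was measured in replicate 2 only, 0.88. With summed transcripts Rps28 differed by -0.56 in replicate 1 and 0.89 in replicate 2, which disagree in sign. Rps9 and Rps12 differed in replicate 1 Ribo-seq by -0.23 and 0.06.

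RNA-seq levels of these genes under METTL3 knockdown were spread around those of Scram. They were lower in both replicates for 7 of 22, against 27.7% of all tested genes, and higher in both for 8, against 26.0%, with medians of -0.10 and 0.08. Ribo-seq was higher in both replicates for 11 of 22, against 31.6%, and lower in both for 1, against 26.0%, with medians of 0.22 and 0.19 (0.02 and 0.05 for all tested genes). TE was higher in both for 8 of 22, against 31.6%, and lower in both for 1, against 23.5%, with medians of 0.07 and 0.13. Without the block, limma called 0 genes (0%) in all 3 measures. Unadjusted p was under 0.05 for 109 genes (RNA-seq), 414 genes (Ribo-seq) and 65 genes (TE), of which 0 were members. With the block it called 1 gene in Ribo-seq (0.0117%), not a member, and 0 in RNA-seq and TE. The blocked unadjusted counts were 346, 1211 and 304 genes, with 0, 2 and 1 members.

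Rps26 had the largest mean difference under METTL3 knockdown in TE, 0.54 and 0.95 in replicates 1 and 2. In Ribo-seq it had 2025.05 and 419.17 in METTL3, against 1473.76 and 257.48 in Scram, and its RNA-seq level was 329.3 and 64.89, against 347.84 and 77.13. Rps19 had Ribo-seq levels of 1427.18 and 3621.56 in METTL3, against 1065.61 and 2220.72 in Scram, with TE differences of 0.55 and 0.59. Rps14 had 2201.54 and 6303.32 in METTL3, against 2006.47 and 3973.31 in Scram. All 3 genes were higher in Ribo-seq in both replicates. Rps16 had the highest mean RNA-seq difference (0.61 and 0.25), with levels of 184.83 and 658.21 in METTL3, against 120.6 and 554.1 in Scram. Rps27l had 61.41 and 183.76 in METTL3, against 49.44 and 151.35 in Scram. Rps14 had 330.32 and 1014.69 in METTL3, against 276.83 and 873.33 in Scram, and these 3 genes were higher in both replicates. At the low end of RNA-seq, Rps3a1 had 161.46 and 821.74 in METTL3, against 311.23 and 702.0 in Scram. Rps27a had 160.58 and 661.37 in METTL3, against 252.1 and 680.03 in Scram. Rps23 had 63.08 and 41.11 in METTL3, against 91.15 and 44.28 in Scram. Rps27a and Rps23 were lower in both replicates, and Rps3a1 in replicate 1 only.

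Ribo-seq was lowest under METTL3 knockdown in Rps4x, with 636.48 and 1161.75 in METTL3, against 1023.47 and 1159.04 in Scram. Rps7 had 1741.38 and 2040.07 in METTL3, against 2219.06 and 2410.9 in Scram. Rps24 had 977.78 and 3228.91 in METTL3, against 1405.34 and 3195.94 in Scram. Rps7 was the member lower in both replicates. The lowest mean TE differences were in Rps24 (-0.62 and 0.05), Rps4x (-0.52 and -0.05) and Rps27l (0.30 and -0.56), and Rps23 had 1.07 and 0.11. Rps6 had RNA-seq levels of 80.43 and 500.26 in METTL3, against 64.75 and 487.6 in Scram, and TE differences of -0.35 and 0.29. Rps28, in replicate 2, had Ribo-seq levels of 5058.97 in METTL3, against 2868.19 in Scram. Rps13 and Rps15a, in the same replicate, differed by 0.01 and 0.08 in Ribo-seq. In replicate 1, Rps9, Rps27 and Fau differed by 0.10, 0.11 and -0.12 in Ribo-seq, and Rps12 by -0.45.

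The order of the genes was not kept between replicates of either knockdown. Pearson's r between the differences of replicates 1 and 2 over 22 genes was 0.25 in RNA-seq, -0.12 in Ribo-seq and -0.34 in TE for METTL3, and 0.18, -0.38 and 0.28 for ABCF1. These are across genes, which are not independent replicates.

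**Figure D5:**
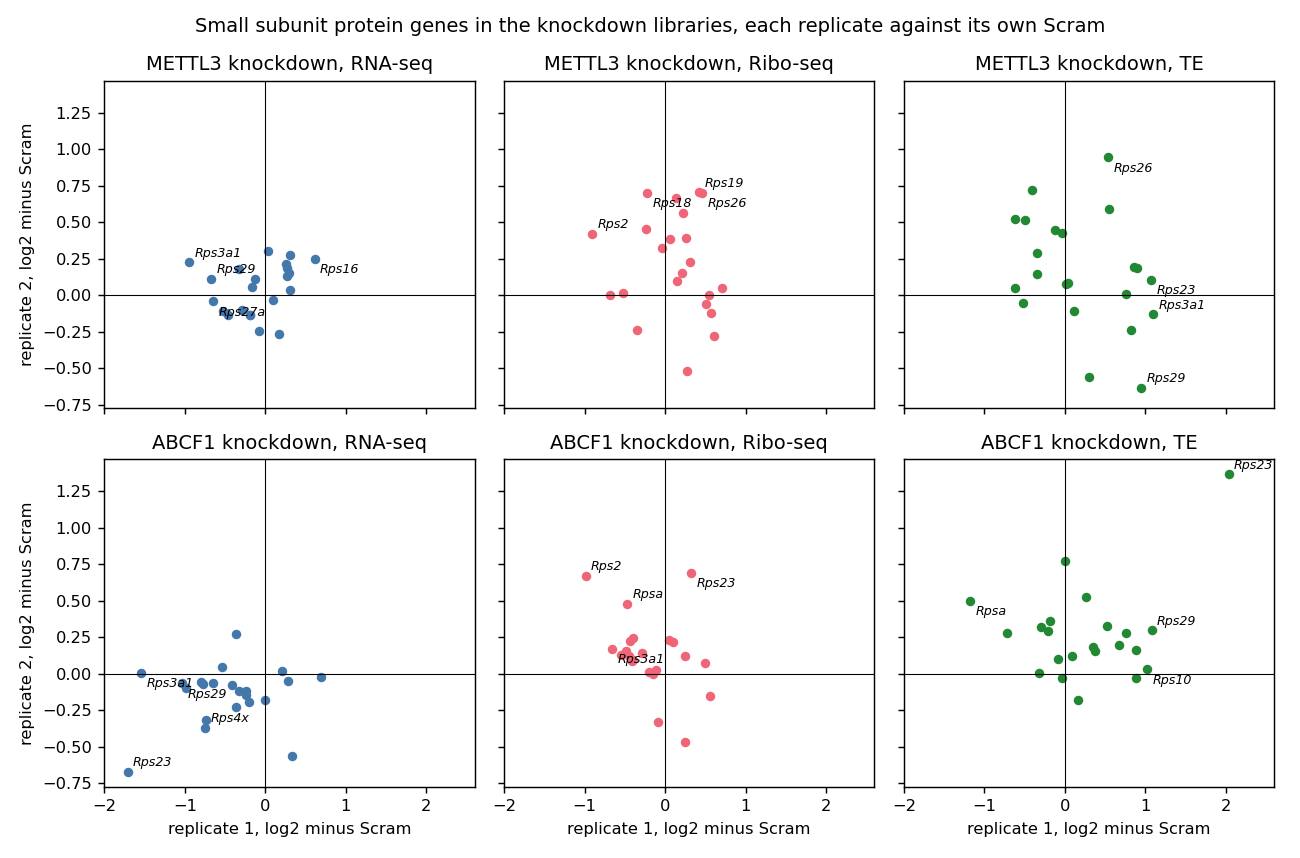
Difference from Scram of the same replicate in log2(scaled RPKM + 1) for the 22 genes measured in both sets, replicate 1 (horizontal) against replicate 2 (vertical). METTL3 knockdown is in the upper row and ABCF1 knockdown in the lower row, with RNA-seq, Ribo-seq and TE from left to right. The 4 genes farthest from 0 are named in each plot. ABCF1 RNA-seq has 15 of 22 genes lower in both replicates (lower left), and Rps23 is farthest out in ABCF1 TE, at 2.04 and 1.37.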

How the data were processed

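The deposited values are RPKM per Ensembl transcript. The submitters' processing notes name cutadapt, Bowtie and the build GRCm38 for the authors' steps, and the sources used here do not give versions, annotation, read minimum or the handling of reads with several positions. Of 22453 transcripts, 22356 matched GENCODE M21 by identifier. Read numbers were recovered from the value of 1 read in each file: multiplied by length, 98.7% to 98.8% of Ribo-seq values and 80.4% to 85.5% of RNA-seq values came out whole within 0.02. That share was too low in RNA-seq for a count test, and none was run. Reads carry no molecular identifiers, so intervals cover counting error only.

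The transcript with the highest mean RPKM stands for a gene. A gene counts as measured in a set where that transcript holds at least 10% of the gene's RPKM there, and was tested if measured in both sets, listed in at least 0.5 of the libraries, with a mean RPKM of at least 1. RNA-seq kept 8213 genes, Ribo-seq 8571 and TE 7921. The 10% threshold was chosen after seeing the values. Libraries were scaled to a common median, and log2(RPKM + 1) was fitted with limma 3.58.1 (eBayes with trend, R 4.3.3), without a block. TE was an interaction contrast over both assays. Residual degrees of freedom were 3, 3 and 6, or 2, 2 and 4 with the replicate block. The script was tested on simulated data. Same-numbered libraries deviated together from their group means (RNA-seq r of 0.53 to 0.65, Ribo-seq r of 0.64 to 0.75), and with every pair over 0.1 the numbers were taken to pair the libraries. Torin took the level of replicate 2. No source used here says that the replicates came from different cultures. The p-values therefore reflect variation among these libraries alone, which may be technical.

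Copies were counted with blastn 2.17.0 at 95% identity over 80% of the coding sequence. Promoter windows are from RefSeq. The members, the gene lists and the tests were chosen with earlier results of these data known. Every member may be named. Described in full are the 3 lowest and 3 highest per comparison and measure, those called or not listed, Rps27 and Rps27l, Rps27a, Fau and Rps6. Up to 3 genes of each other list are named, those with the largest absolute Torin TE difference, and 1 gene that this rule names is not reported here. Alternatives were other pseudocounts (0.5 and 4), no scaling, quantile normalization, no filter, summed transcripts, the replicate block and leaving out each library.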

Additional observations from a re-analysis of the deposited data

How the results depend on the processing

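In Torin against Scram replicate 2, 22 of 22 small subunit genes were lower in Ribo-seq and TE under both other pseudocounts, no scaling and quantile normalization, as were 26 of 26 with summed transcripts, and 25 of 29 without the filter, where 4 had no second-set value. Without scaling the median of all tested genes was 0.18 in Ribo-seq, -0.18 in RNA-seq and 0.38 in TE, against -0.01, -0.03 and 0.03 with the common median. The median difference in Ribo-seq was -1.92 without scaling, -1.51 with quantile normalization and -1.73 against both Scram libraries. The value of -1.73 is also the median change of the members in the limma fit without the block. Its use as an alternative to the difference from Scram replicate 2 was chosen after seeing the data. In TE the median difference was -1.84 without scaling, -1.56 with quantile normalization and -2.38 without the filter. In RNA-seq, 16 of 22 were lower without scaling, where 7 were lower with the common median, and the median against both Scram libraries was 0.73. Calls in Torin rested on the replicate block, with 16 in Ribo-seq and 10 in TE. With the block and summed transcripts, chosen after seeing the data, they were 19 of 26 and 9 of 26 (151 of 10353 and 83 of 9654 genes in all). With the block and 1 library left out, also chosen after seeing the data, Ribo-seq had 4 and 6 (without METTL3 replicate 1 or 2), 11 and 11 (ABCF1) and 21 and 20 (Scram), where 33, 52, 75, 77, 348 and 514 of 8571 genes were called. TE had 0 to 3, where 0 to 36 of 7921 genes were called. The block changed no other call of a member. Summed transcripts turned the direction of Rps3 in RNA-seq and TE under ABCF1 knockdown. The METTL3 median in Ribo-seq was 0.16 without scaling, 0.1 with quantile normalization and 0.12 without the filter, and in TE -0.01 with quantile normalization and 0.09 without the filter. The ABCF1 median in TE was 0.44 without scaling and 0.14 with quantile normalization. Leaving out 1 library without the block, which sets libraries of different sets against each other, moved the METTL3 medians from -0.59 to 0.65 in RNA-seq, -0.39 to 0.76 in Ribo-seq and -0.17 to 0.45 in TE. It moved the ABCF1 medians from -1.02 to 0.48, -0.65 to 0.55 and 0.04 to 0.48, and of these 6 medians ABCF1 TE alone kept its sign. The cause of the other moves was not tested.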
